A study of Gossypium hirsutum with 3 samples.

Results

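Homeologous gene pairs whose A and D copies were both below the bound of expression in cotton leaf were examined. RNA-seq was done on leaves of the allotetraploid cotton *Gossypium hirsutum*, cultivar TM-1, in 3 replicate libraries. The plants were untreated, were grown in a greenhouse and were 20 days old, and there was no other condition. Expression was measured as FPKM, the number of fragments assigned to a gene, scaled to its exon length and to the mapped fragments of the library. Pairs were taken by identifier from the study's list of reciprocal BLAST hits between the subgenomes, of which 1691 pairs of chromosome A01 and the first 309 pairs of A02 were used. A pair was called silent when the mean FPKM of both homeologs over the 3 libraries was below 1, the level from which the study counts a gene as expressed. This gave 581 silent pairs among 2000 listed pairs (29.05%), with 476 of 1691 pairs on A01 (28.1%) and 105 of 309 on A02 (34.0%). "Silent" therefore means below this bound in leaf and says nothing of other tissues. In a whole leaf, expression in few cells and a low level in many cells cannot be told apart. Since FPKM values chose the pairs, their levels are given as a description.

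An allotetraploid nucleus holds the chromosome sets of a pair of parental species, here named A and D, so that most genes are present as an A and a D homeolog descended from one ancestral gene. Homeologs start out with much the same promoter and coding sequence, and in a polyploid they may keep a shared pattern of expression, divide it between them, or leave a single active copy. A gene without transcripts in leaf can be one that is used in another organ or condition, or one that has lost its function, and in plants the trimethylation of lysine 27 on histone H3 is a known mark of genes held inactive in a tissue. The ChIP-seq libraries of the study were not analysed here.

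The files give identifiers without gene names. None of the 1162 genes in the silent pairs was found in the RefSeq gene table (0 matches), so no function, pathway or leaf marker could be read and no sequence is shown. The study's lists of TFs with biased expression and of genes in its leaf-related co-expression module had 30 and 33 genes in the listed pairs, and 0 of them in silent pairs. The TF list was drawn by the study from pairs expressed in these libraries and the module from biased genes, so these counts follow from the way the lists were made.

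In each library 70478 genes were listed, between 15650 and 15985 of them at 0. The median FPKM was 2.06 and 2.13 in replicates 1 and 2 and 1.79 in replicate 3, where the 10 most abundant genes held 9.35% of the FPKM sum against 8.00% and 8.03% in the others. The files give no read counts. In genes below FPKM 0.05, where a value reflects few reads, the commonest ratio was 0.96 for replicate 1 to 2, 0.99 for replicate 1 to 3 and 1.04 for replicate 2 to 3, so a read was worth nearly the same in each library. A value of 0 in 1 library beside FPKM of 1 or more in both others was rare, with 1, 1 and 8 genes in replicates 1, 2 and 3 over the whole genome.

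The number of silent pairs was steady between libraries. Taken one library at a time, 576, 572 and 601 pairs were silent in replicates 1, 2 and 3, or 583 ± 15.7 (SD, n = 3). Replicate 3, which had the lowest median FPKM, had the most silent pairs, and the part of that difference in the count was not tested. Of the 581 pairs silent by the mean, 541 were below FPKM 1 in both homeologs of every library, and 40 reached 1 in at least 1 library. The crossings were mostly in replicate 1 (19 pairs) and replicate 2 (24 pairs), with 6 pairs in replicate 3.

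To follow silence in values that the choice did not use, pairs were chosen by the mean of 2 libraries and then looked up in the library left out. Of 590 pairs chosen without replicate 1, 558 (94.6%) were silent in it. Of 585 chosen without replicate 2, 554 (94.7%) were silent in it, and of 580 chosen without replicate 3, 563 (97.1%) were. Among the pairs not chosen, 1.28%, 1.27% and 2.68% were silent in the library left out. The highest value that any chosen pair reached in the library left out was 1.54, 1.96 and 2.05 FPKM, so pairs that crossed the bound did so by at most about 1 FPKM.

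Near the bound lay 18 silent pairs whose higher homeolog had a mean between 0.9 and 1, and 19 other pairs above 1 by less than 0.1. The silent pair closest to it was Gh_A01G1428 and Gh_D01G1667. Its A homeolog had FPKM of 1.06, 1.13 and 0.802 in replicates 1, 2 and 3 (mean 0.999) and its D homeolog 1.15, 0.875 and 0.738 (mean 0.921). The closest pair outside was Gh_A01G1545, at 0.292, 0.173 and 0.120, with Gh_D01G1797 at 1.39, 0.955 and 0.705, a mean just above 1. Both lay on either side of 1 depending on the library. The highest value of a silent pair in a single library was 1.63 FPKM, in replicate 2 of Gh_D01G0387, which stood at 0.647 and 0.695 in replicates 1 and 3. Its partner Gh_A01G0357 had 0.818, 1.10 and 0.348 FPKM, so that both copies were highest in the same library.

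Silent pairs divided into pairs without any signal and pairs with a low one. Both homeologs were listed at 0 in every library in 151 silent pairs (26.0%). In 54 pairs (9.29%) only the A homeolog and in 81 pairs (13.9%) only the D homeolog was above 0 in at least 1 library. In the remaining 295 pairs (50.8%) both homeologs were above 0 somewhere. On A01 the pairs at 0 throughout were 129 of 476 (27.1%) and on A02 22 of 105 (21.0%), and pairs with both homeologs above 0 made up 50.8% and 50.5%. A listing at 0 says that no fragment was assigned, and a transcript under the detection limit gives the same value.

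**Figure D1:**
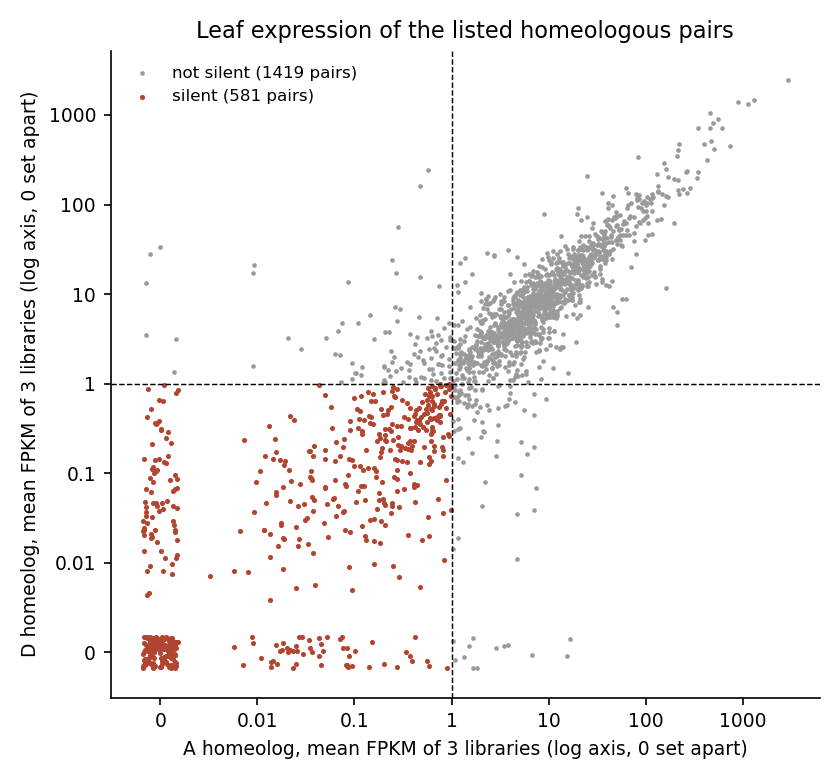
Mean FPKM over 3 libraries of the A homeolog (x axis) and the D homeolog (y axis) of the 2000 listed pairs on log axes, with means of exactly 0 set apart at the low end and spread slightly so that points do not cover each other. Dashed lines mark FPKM 1, and the 581 silent pairs fill the lower left, with 151 of them at 0 on both axes.

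Detection was mostly all or nothing. The A homeolog was at 0 in all 3 libraries in 232 silent pairs (39.9%), above 0 in 1 library in 68, in 2 libraries in 62 and in 3 libraries in 219 (37.7%). For the D homeolog the numbers were 205 (35.3%), 79, 72 and 225 (38.7%). Homeologs seen in 1 library were faint, with a median of the single value of 0.0648 FPKM for A and 0.0618 for D. Homeologs seen in every library had a median mean of 0.353 FPKM in A and 0.321 in D. Both homeologs were above 0 in all 3 libraries in 155 pairs, the largest class beside the 151 pairs at 0 throughout.

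**Figure D2:**
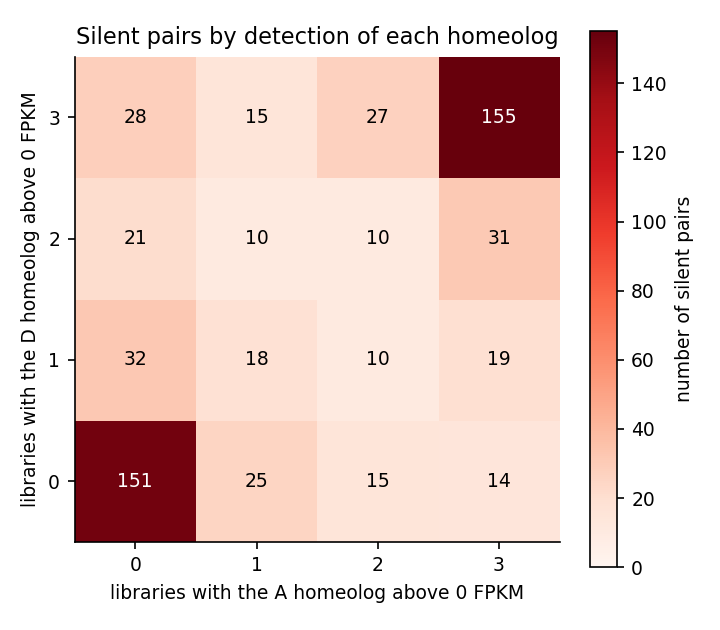
Number of silent pairs by the number of libraries (0 to 3) in which the A homeolog (x axis) and the D homeolog (y axis) were above 0 FPKM. The largest cells are the corners in which both homeologs were at 0 throughout (151 pairs) or above 0 in every library (155 pairs), while 28 and 14 pairs had one homeolog in every library and the other in none.

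Within the 295 silent pairs with both homeologs above 0, the median of the mean FPKM was 0.205 in A (quartiles 0.0639 and 0.493) and 0.183 in D (quartiles 0.0514 and 0.423). Their levels were related across pairs, with Spearman's rho of 0.53 (n = 295 pairs, A and D values coming from the same libraries). In the 1231 pairs with both homeologs at FPKM 1 or more rho was 0.85, over a far wider range of levels. The means differed by less than 2-fold in 141 of the 295 pairs and by more than 10-fold in 25. Where only 1 homeolog was above 0 it was faint as well, with a median of 0.0395 FPKM where A was detected (54 pairs) and 0.0481 where D was (81 pairs). A pair with one homeolog at 0 and the other at a mean between 0.5 and 1 was rare, with 7 such D homeologs and 3 such A homeologs. Over all listed pairs that were not silent, the median was 6.65 FPKM in A and 7.11 in D.

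Silence was mostly shared by the homeologs. In all listed pairs, 682 A homeologs (34.1%) and 668 D homeologs (33.4%) had a mean below 1. If these shares were independent, their product would give 228 pairs with both below 1, and 581 were found, 2.55 times as many. Within single libraries this ratio was 2.52, 2.57 and 2.44 in replicates 1, 2 and 3. The D homeolog was silent in 85.2% of the pairs with a silent A homeolog and in 6.60% of the pairs with an expressed one. In the reverse direction, the A homeolog was silent beside 87.0% of the silent and 7.58% of the expressed D homeologs. Both contrasts recurred in every library, with 84.6% ± 0.27 against 6.97% ± 0.30 (SD, n = 3) for D homeologs and 86.5% ± 0.31 against 8.00% ± 0.37 (SD, n = 3) for A homeologs. These figures describe the listed pairs, which were defined by sequence similarity. Pairs are not independent replicates, and no p-value is given.

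The stricter the bound, the larger was this ratio, while the share of D partners that met the same bound fell. At a mean FPKM below 2 it was 2.14 (718 pairs against a product of 336), below 0.5 it was 2.97 (473 against 159), and below 0.1 it was 4.06 (305 against 75.1). For homeologs at 0 in every library, which were 238 in A and 218 in D, it was 5.82 (151 pairs against 25.9). Its largest possible value also grows as fewer homeologs pass, so the shares are easier to compare. The D homeolog met the same bound in 718 of 833 pairs with A below 2 and in 473 of 569 below 0.5. It did so in 305 of 389 pairs below 0.1 and in 151 of 238 at 0. The rise of the ratio is therefore no closer agreement at stricter bounds. Within the silent pairs, where both homeologs are already under FPKM 1, the D homeolog was at 0 throughout in 151 of 232 pairs with the A homeolog at 0 (65.1%) and in 54 of 349 pairs with the A homeolog above 0 (15.5%). The product of both shares would give 81.9 pairs, and 151 were found. Silent homeologs thus matched not only in lying below the bound but also in being listed at 0 or above 0. Gene length, which sets how readily a weak transcript is sampled, is shared by homeologs in large part, and its part in this was not tested. Reads whose origin in A or D cannot be told may also give a value above 0 to both copies of a pair. The part of such reads was not tested either.

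The share of silent D partners fell step by step with the level of the A homeolog. In single libraries, the D homeolog was silent in 95.8% ± 0.25 (SD, n = 3) of the pairs with A at 0, in 90.0% ± 1.35 with A above 0 and below 0.1, in 77.0% ± 2.93 with A from 0.1 to 0.5 and in 61.8% ± 3.82 with A from 0.5 to 1. Above the bound it was 33.2% ± 0.44 with A between 1 and 2 and 5.84% ± 0.27 with A between 2 and 10. These steps were each larger than the spread between libraries, which covers the measurement of the same pairs only. By the level of the D homeolog, the share of silent A partners was 94.7% ± 0.39 (SD, n = 3) with D at 0 and 91.5% ± 2.14 with D above 0 and below 0.1, and by the mean FPKM these classes stood at 94.0% and 94.6%, so the first step was not separate there. The share then was 83.5% ± 0.89 with D from 0.1 to 0.5, 62.8% ± 3.40 from 0.5 to 1, 34.7% ± 2.05 from 1 to 2 and 6.67% ± 0.57 from 2 to 10. Beside A homeologs at FPKM 10 or more, 0.503% ± 0.12 (SD, n = 3) of the D homeologs were silent, against 2.66% ± 0.38 (SD, n = 3) of the A homeologs beside D homeologs at 10 or more. By the mean FPKM these were 2 of 524 and 13 of 537 pairs, and the ranges of the libraries did not overlap, from 0.368% to 0.584% and from 2.36% to 3.09%. The libraries measured the same pairs, so these ranges do not show how far such small counts could vary by chance. The difference was not tested.

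**Figure D3:**
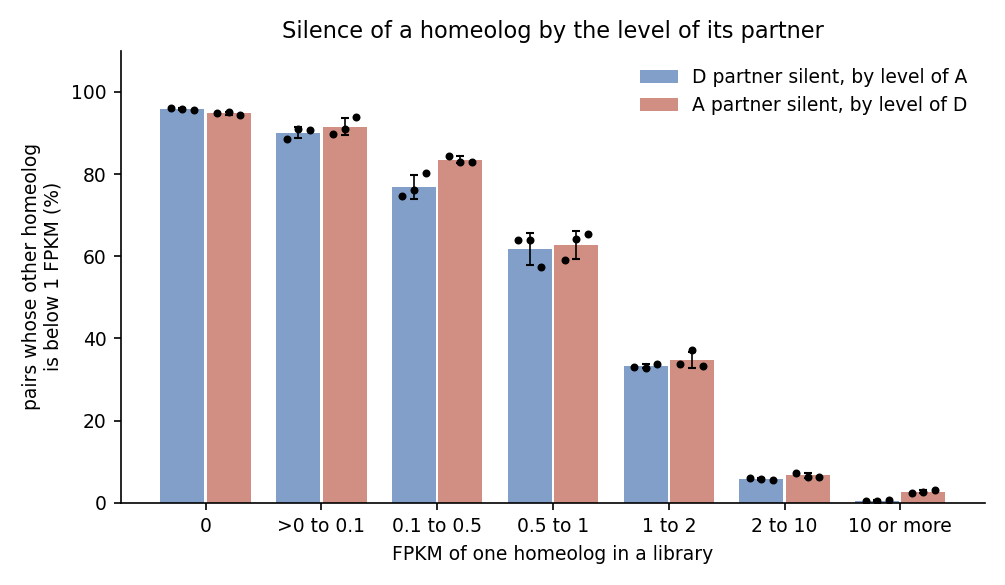
Percent of pairs whose other homeolog was below FPKM 1 (y axis) by the FPKM of one homeolog in the same library (x axis), for D partners by the level of A (blue) and A partners by the level of D (red). Bars are means of 3 libraries, points single libraries and error bars SD. The share falls from 95.8% and 94.7% beside homeologs at 0 to 0.503% and 2.66% beside homeologs at 10 or more.

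Pairs in which silence was not shared were fewer. In 101 pairs only the A homeolog was silent, and the median of its D partner was 2.12 FPKM (quartiles 1.44 and 3.80), with 45 partners (44.6%) below 2 and 13 at 10 or more. In 87 pairs only the D homeolog was silent, with a median of 1.79 FPKM (quartiles 1.24 and 3.52) in the A partner, with 47 partners (54.0%) below 2 and 2 at 10 or more. In 6 and 13 of these pairs the silent homeolog was at 0 in every library.

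To describe differences between the homeologs of silent pairs, D values were compared with A values by limma on log2(FPKM + 0.42). A single fit covered the 1849 listed pairs with any value above 0, with Benjamini-Hochberg adjustment over all of them. The same FPKM values had chosen the silent pairs, so their calls and p-values are given as a description. Of the silent pairs 430 entered. At an adjusted p below 0.05 and an absolute log2 fold change of at least 1, 15 silent pairs (3.49%) were higher in D, where 11.3% of all pairs fitted were called, and 13 (3.02%) were higher in A, where 9.03% of all were. The bound on both means, on this scale, leaves room for a log2 fold change of at most 1.76, so these shares cannot be read against those of all pairs. The counts rested on the pseudocount, with 48 and 47 silent pairs called at 0.1 and 0 and 0 at 1, where the scale keeps every silent pair under a log2 fold change of 1. Each of the 28 called pairs had A and D values that did not overlap between libraries, and in 9 of them the lower homeolog was at 0 in every library. Both counts come from the values that made the calls and are no separate support for them. Without a threshold on the fold change, 58 of the 430 silent pairs (13.5%) were higher in D, where 24.8% of all 1849 pairs fitted were called, and 55 (12.8%) were higher in A, where 23% of all were. The values of the homeologs did not overlap in 83 silent pairs with D higher (19.3%), against 29.6% of all pairs fitted, and in 72 with A higher (16.7%), against 26.4% of all. Homeologs that are each at 0 in some library cannot have separate values, and the silent pairs fitted include many of this kind. Like the shares before them, these cannot be read against those of all pairs. The median log2 fold change of the silent pairs was 0.00 against 0.03 for all pairs fitted. The mean was higher in A in 214 silent pairs and in D in 216. With each column centred on the median of the expressed pairs, the calls were 11 in D and 18 in A, so that the split between directions depended on the scaling.

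The pairs named next were picked by the same values that were tested, and they lost their call at a pseudocount of 1. The silent pair with the largest difference towards D was Gh_A01G2127 and Gh_D01G1394. The A homeolog was at 0 throughout and the D homeolog had 1.05, 0.924 and 0.949 FPKM in replicates 1, 2 and 3 (adjusted p = 1.13e-05 from limma). Next came Gh_A01G0188, also at 0 in every library, with Gh_D01G0237 at 0.815, 0.796 and 0.928 FPKM (adjusted p = 1.8e-05 from limma). In both pairs the D values were close together, with SDs of 0.0658 and 0.0712 (n = 3), and separate from 0. Towards A, the largest difference was in Gh_A01G0632, at 1.31, 1.05 and 0.625 FPKM, while Gh_D01G0646 was at 0, 0.116 and 0. Its log2 fold change of D over A was -1.60 (SE 0.21, adjusted p = 0.000791 from limma). Values that do not overlap between the homeologs were a condition for naming these pairs. Gh_A01G1327 stood at 0.482, 1.39 and 0.838 FPKM and its partner on chromosome number 13, Gh_D13G0887, was at 0 throughout (limma adjusted p = 0.00156). Here the A values were far apart, with an SD of 0.459 (n = 3).

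**Figure D4:**
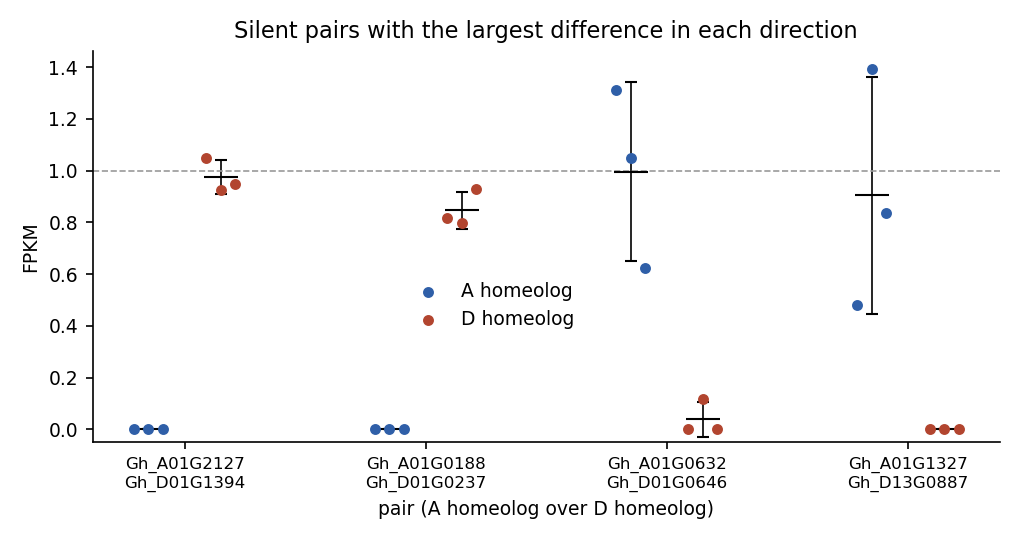
FPKM in each of 3 libraries (points, y axis) for the A homeolog (blue) and D homeolog (red) of 4 silent pairs, with the mean and SD in black and FPKM 1 as a dashed line. In the pairs of Gh_A01G2127 and Gh_A01G0188 the A homeolog is at 0 and the D homeolog between 0.796 and 1.05, and in the other pairs the A homeolog is the higher one, from 0.482 to 1.39.

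Most listed pairs joined chromosomes of the same number, and 37 did not. Of these 37 pairs, 20 were silent (54.1%), 11 of them at 0 throughout, against 561 of the 1963 pairs on corresponding chromosomes (28.6%). The first share rests on few pairs, and the difference was not tested. The highest means among the 20 were in Gh_A01G1327 and Gh_D13G0887, described above, in Gh_A02G0171 and Gh_D01G1494, and in Gh_A01G0846 and Gh_D09G0349. Gh_A02G0171 was at 0 in every library, and Gh_D01G1494 had 1.28, 1.28 and 0.0313 FPKM in replicates 1, 2 and 3, a near loss in replicate 3 (adjusted p = 0.0586 from limma). Gh_A01G0846 had 0.189, 0 and 0.158 FPKM and Gh_D09G0349 0.733, 0.749 and 0.712 FPKM, with a log2 fold change of D over A of 1.12 (SE 0.15, adjusted p = 0.00105 from limma).

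Silent pairs were scattered along A01 in short runs. In the order of the A gene numbers, the 476 silent pairs of A01 formed 333 runs, of which 235 were a single pair, 65 were of 2, 23 of 3, 8 of 4 and 2 of 5 pairs. A silent pair was followed by another in 143 of 476 cases (30.0%), close to the share of silent pairs on the chromosome (28.1%). If neighbours were independent, that share would give 134 such couples. In single libraries a silent pair was followed by another 2.45 ± 0.40 percentage points (SD, n = 3) more often than the share of silent pairs. The libraries measure the same pairs in the same order. This SD therefore covers the measurement only, and says nothing of how far the placement of silent pairs could vary by chance. In windows of 100 listed pairs, between 23 and 36 pairs were silent. The highest window was that of pairs 101 to 200 with 36, and the lowest were those of pairs 601 to 700 and 701 to 800 with 23 each.

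On the listed part of A02, a larger share of the silent pairs were followed by another at a bound of 1. Its 105 silent pairs formed 62 runs, with 38 single pairs, 14 runs of 2, 5 of 3, 2 of 4, 2 of 5 and 1 of 6. A silent pair was followed by another in 43 of 105 cases (41.0%), where 34.0% of the pairs were silent, and the product would give 35.6 couples. In single libraries the excess was 5.11 ± 0.51 percentage points (SD, n = 3), where the SD again covers the measurement only. In each library the excess was above that of A01. This order of the chromosomes depended on the bound. At a bound of 2 the excess was 4.73 points on A01 and 4.35 on A02, and the longest run had 8 pairs on A01 and 6 on A02. With adjacent gene numbers only, the longest run had 5 pairs on A01 and 4 on A02. In that setting 119 of 372 silent pairs on A01 (32.0%) and 32 of 76 on A02 (42.1%) were followed by another. In the order of the D genes, on corresponding chromosomes, the shares were 30.3% on A01 and 41.4% on A02. Whether A01 and A02 differ was not tested, since each is a single chromosome. All 5 runs of 4 or more pairs on A02 lay between Gh_A02G0156 and Gh_A02G0219, within the window of pairs 101 to 200, where 44 of 100 pairs were silent against 30 of 100 in the windows before and after. In replicates 1, 2 and 3 that window held 42, 42 and 48 silent pairs. This stretch was singled out after its values were seen.

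**Figure D5:**
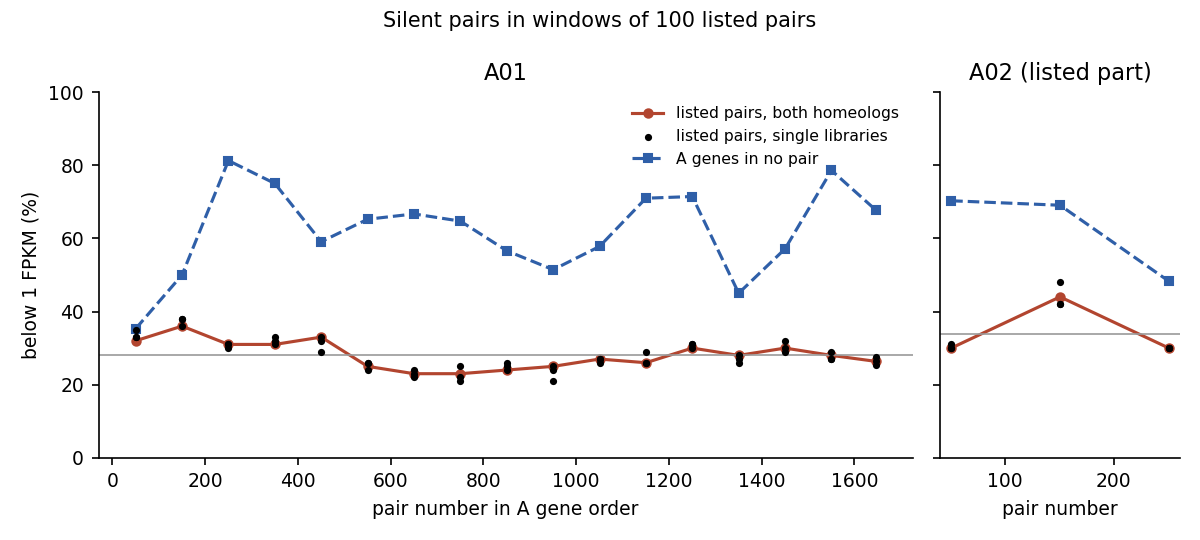
Percent below FPKM 1 (y axis) in consecutive windows of 100 listed pairs in A gene order (x axis, pair number) for silent pairs by the mean of 3 libraries (red), the same in single libraries (black points) and A genes of the window that are in no listed pair (blue). Grey lines give the share of silent pairs of A01 (28.1%) and of the listed part of A02 (34.0%). On A01 the windows lie between 23 and 36 silent pairs of 100, while the middle window of A02 reaches 44. The last 9 pairs of A02 are not drawn.

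The longest runs held pairs of different kinds. On A01, the run from Gh_A01G0333 to Gh_A01G0342 had 5 pairs, 4 of them at 0 in every library. The fifth, Gh_A01G0342, was at 0 as well, and Gh_D01G0377 had 0.0540 FPKM in replicate 1 only. The other run of 5, from Gh_A01G0582 to Gh_A01G0586, had no pair at 0 throughout. Its D homeologs Gh_D01G0593 to Gh_D01G0597 are numbered in the same order, and Gh_D01G0593 had 0.105, 0.103 and 0.118 FPKM in replicates 1, 2 and 3, while Gh_A01G0582 had 0, 0.0219 and 0.0422. Gh_D01G0594 had 0.0846, 0.0811 and 0.0845 FPKM beside an A homeolog at 0 in every library. Gh_D01G0595 was also above 0 in each library, at 0.176, 0.0631 and 0.195 FPKM, with its A homeolog at 0 throughout. The last pairs of the run were not, with Gh_D01G0596 at 0.0138 FPKM in replicate 1 only and Gh_D01G0597 at 0.0656 in replicate 3 only, where Gh_A01G0586 had 0.134, 0.139 and 0. The run of 6 on A02, from Gh_A02G0193 to Gh_A02G0202, had a highest mean of 0.0433 FPKM in either homeolog, and 2 of its pairs were at 0 throughout. None of its homeologs was above 0 in more than 1 library.

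A genes that are in no listed pair did not enter the choice, and they were looked up beside the pairs. On A01 and the listed part of A02, 362 of 580 such genes (62.4%) had a mean FPKM below 1, against 682 of 2000 paired A genes (34.1%). Over the whole A subgenome the share was 38.6% of 32032 genes. Where the nearest listed pair on both sides was silent, 46 of 60 unpaired genes (76.7%) were below 1, against 137 of 236 (58.1%) between expressed pairs and 179 of 280 (63.9%) between a silent and an expressed pair. In single libraries the first share was 76.7% to 78.3% and that between expressed pairs 56.8% to 59.3%. The difference came largely from A02, where 20 of 21 unpaired genes between silent pairs were below 1 (95.2%) against 23 of 40 (57.5%) between expressed pairs, and 13 of the 21 lay in the window of pairs 101 to 200. On A01 it was 26 of 39 (66.7%) against 114 of 196 (58.2%). Across windows the unpaired genes did not simply follow the silent pairs. On A01, 39 of 48 unpaired genes (81.3%) were below 1 among pairs 201 to 300, where 31 of 100 pairs were silent, and 14 of 28 (50.0%) were below 1 among pairs 101 to 200, where 36 were. Neighbouring genes can be tandem copies of each other, and reads that fit both homeologs or several copies could be assigned to any of them, and the part of either in these values was not tested.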

How the data were processed

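According to the methods of the study, fastp removed bases under a quality of 25 and reads under 20 bp, HISAT2 placed the reads on the cotton reference genome, and StringTie with gene models from CottonGen gave the FPKM values that the authors deposited, which entered here unchanged. Tool versions are not given in the sources used here. The labels word the oligo(T) step as a removal of mRNA, whereas the methods say that mRNA was enriched. The deposited FPKM values carry no read counts per gene, and the study's read totals were not used here, so no counting interval is given.

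Pairs came from the study's list by identifier, of which a part was used. Gene order was read from the numbers in the identifiers. FPKM are not counts, so the limma package (version 3.58.1, under R 4.3.3) compared D with A after adding 0.42 to each FPKM and taking log2, without a replicate block. Fold changes on this scale understate those of low genes. The pseudocount, members, lists and tests were chosen with earlier results of these data known. A and D values of a library pair through that library (correlation of their deviations 0.45 over all pairs fitted, 0.06 over the silent ones). The fit was tested on simulated pairs. Differences were planted only where the mean of log2(FPKM + 0.42) was above 0, so the faint silent pairs were not covered. At an absolute log2 fold change of 1.5, 95 of 100 were recovered, and at 3, 99 of 100, with 0 false calls. The labels do not say whether the libraries come from separate plants, so p-values measure the spread between libraries. Named pairs were, per direction, the 2 called silent pairs with the largest fold change and non-overlapping values, the pairs nearest the bound, the ends of the longest runs, 3 pairs off the corresponding chromosome and the highest single value. Other values come from Python 3.11.15 (pandas 2.3.3, numpy 2.4.6, scipy 1.17.1) and the plots from matplotlib 3.10.9. Alternatives covered the bound, the pseudocount, the filter, the variance trend, centring, the block, gene order and leaving out each library.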

Additional observations from a re-analysis of the deposited data

How the results depend on the processing

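Leaving out each library in turn gave 580 to 590 silent pairs, 169 to 174 pairs at 0 throughout, a ratio of shared silence of 2.51 to 2.57, 31.8% to 32.6% of silent pairs followed by another (32.0% with all libraries), longest runs of 5 and 6 on A01 and A02, a difference of 17.8 to 22.3 percentage points between unpaired genes beside silent and expressed pairs, and 15 to 17 silent pairs higher in D and 10 to 16 higher in A. A bound of 0.1 gave 305 silent pairs and a ratio of 4.06, and 22.3% followed by another, a bound of 0.5 gave a ratio of 2.97 and 26.4%, a bound of 2 gave 2.14, 40.7% and a run of 8 on A01, and FPKM below 1 in every library gave 2.67 and 29.2%. The share of silent pairs moves with the bound as well. Silent pairs were followed by another more often than that share at each of the 4 bounds on both chromosomes. The excess was 1.89 to 5.65 percentage points on A01 and 4.35 to 11.4 on A02, with A01 above A02 at a bound of 2. The bounds give nested sets of the same pairs, so these values are not independent of each other. With adjacent gene numbers only, 33.7% were followed by another and the A02 run shrank to 4. Unpaired genes between silent pairs exceeded those between expressed pairs by 18.6 percentage points, by 23.9 at a bound of 0.5 and by 14.5 at 2. Silence in the library left out fell from 95.4% to 89.4% at a bound of 0.1. The limma calls depended on the pseudocount. At 0.1, 48 silent pairs were higher in D and 47 in A, and at 1 there were 0 and 0, since that scale keeps silent pairs under an absolute log2 fold change of 1, the largest found being 0.98 (unadjusted p below 0.05 in 52 and 57, adjusted in 43 and 39). Adjusted p alone gave 58 and 55. With the replicate block 15 and 13 were called, the same pairs as without it, while adjusted p alone gave 69 and 68 in place of 58 and 55. The 4 pairs named for their difference lost their call at a pseudocount of 1 and in no other setting. Values of a few hundredths of FPKM rest on few reads, and a homeolog at 0 may be transcribed under the limit of these libraries.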
